A study of Drosophila melanogaster with 4 samples.

Results

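The miRNAs described here are those of nbrKO cells, a culture of the embryo-derived Drosophila line Schneider 2 (S2) that was depleted of the exonuclease Nibbler (Nbr) with CRISPR-Cas9. The members are all rows of the deposited miRNA table that hold a value for this library, 371 of 495 rows in the whole table, and each row is 1 start position (5′ isoform) of 1 arm of a miRNA hairpin. Loci taken to give the same mature RNA, by name and first 7 letters or by identical values, were joined, which left 351 arms of 203 hairpins. Full mature sequences were not compared. The series holds 4 libraries, nbrKO and 3 libraries of nbrKO cells stably transfected with an Act5C-driven construct, Nbr(wt), NbrCTD or NbrCTD-GWp. The values of those 3 were not used here. With 1 nbrKO library there is no replicate, so no test was made, and every interval printed below covers counting error only. Nbr mRNA is outside the small RNAs sequenced, so its loss was not measured. The labels do not say whether the nbrKO cells are 1 clone, and no library of S2 cells with Nbr intact was analysed here.

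A miRNA hairpin is cut by Drosha and Dicer-1 into a duplex with a 5p and a 3p strand, of which Argonaute usually keeps the guide and discards the passenger. The first base sits in a pocket of Argonaute, and the bases that follow it, the seed, pair with target mRNAs. The 3′ end is remodelled after this step: Nibbler trims it, nucleotidyltransferases such as Tailor add bases to it, and mirtrons, whose hairpins are made by splicing instead of Drosha, are known in flies as frequent substrates of Tailor.

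The miRNA rows held 13126126 reads, 54.7% of the 24005045 reads behind the deposited RPM. RPM is the number of reads scaled to a common library total. Both totals, like all read numbers here, were inferred from the RPM values. Reads of each row are divided into GM and PM, terms without a definition in the headers. GM was taken as fully genome-matching and PM as matching except for extra bases at the 3′ end. Tailed share is PM over the sum of GM and PM. A tail that happens to match the genome counts as GM, and sequencing errors at the end were not set apart. The S2 label was set against miRNA markers. All 16 miRNAs listed as common in S2 cells were present, at ranks 1 to 54, and held 80.5% of the miRNA reads. That list was chosen with earlier results of these data known, so it is not an independent check of the label. All 20 listed markers of gonads, muscle, neurons, the early embryo and later stages were listed too, but together they had 3210 reads, or 0.0245%. Of these, 5 passed 100 reads: the ovarian miR-318-3p with 1821, and the embryonic miR-6-3p with 619, miR-3-3p with 128, miR-4-3p with 114 and miR-5-5p with 179. The neuronal miR-124-3p had 26 reads and the muscle miR-1-3p had 10.

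The starts of the arms on which the results turn are shown here as the table gives them, in DNA letters. The capitals are bases 2 to 7, the part of the seed that the table covers, and the small letter is the first base. No source used here says that the string begins at base 1. It was read so because the known starts of bantam and let-7 fit. The letters also moved with the start in all 87 pairs of isoforms with starts under 7 nt apart. A string at any fixed distance from the start would do the same, so the pairs cannot show that it begins at base 1. These pairs were taken from all 495 rows, including rows without a value for nbrKO. The first 2 lead the library among arms off chromosome arm 2R, and the next 2 are abundant arms that do not begin with U.
bantam-3p: tGAGATC
miR-2a-3p: tATCACA
miR-11-3p: cATCACA
miR-33-5p: gTGCATT
The remaining starts belong to heavily tailed arms, shown for comparison of their first bases.
miR-317-3p: tGAACAC
miR-34-5p: tGGCAGT
miR-998-3p: tAGCACC
miR-1012-3p: tTAGTCA
miR-2497-3p: cAACATT

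A few arms made up most of the library. bantam-3p, which promotes growth and blocks cell death, had 4566844 reads or 190245 RPM, 34.8% of all miRNA reads. miR-14-3p, known for limiting cell death and for a role in fat metabolism, followed with 1753410 reads (13.4%). Together they held 48.2% of the reads. miR-8-3p, related to vertebrate miR-200, had 696889 reads. miR-2a-3p, of a family that targets cell death genes, had 678085 reads, and miR-184-3p, needed in the germline and embryo, had 656056. The value of miR-2a-3p is the sum of 2 loci. Read numbers are those of listed starts only. The listed start held a fraction of 0.615 of the reads of miR-2a-3p and 0.965 of those of miR-8-3p, so their order holds for listed starts. The first arm had 2.60 times the reads of the second, and the second 2.52 times those of the third, whereas the arms at ranks 3 and 5 held 5.31% and 5.00% of the reads.

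The next arms were close to one another. miR-2b-3p had 544014 reads. miR-11-3p, encoded inside the cell cycle gene E2f1, had 368916. miR-282-5p had 368331 and miR-13b-3p 365240. miR-276a-3p, known for roles in the adult brain, had 275665, and miR-33-5p, from an intron of the lipid regulator gene SREBP, had 273046. bantam-5p, the passenger of the leading miRNA, ranked 12 with 260144 reads, above most guides. The 10 first arms held 78.3% of reads, 18 arms held 90% and 55 held 99%. At the other end, 141 arms had fewer than 10 reads and 33 had 1 read or less, and the median arm had 19 reads. The 128 arms with at least 100 reads, on which shares are given below, held nearly all reads, and the other 223 held 0.0233%. Just inside that limit lay miR-2497-5p with 105 reads, and just outside lay miR-4943-3p with 94.

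**Figure D1:**
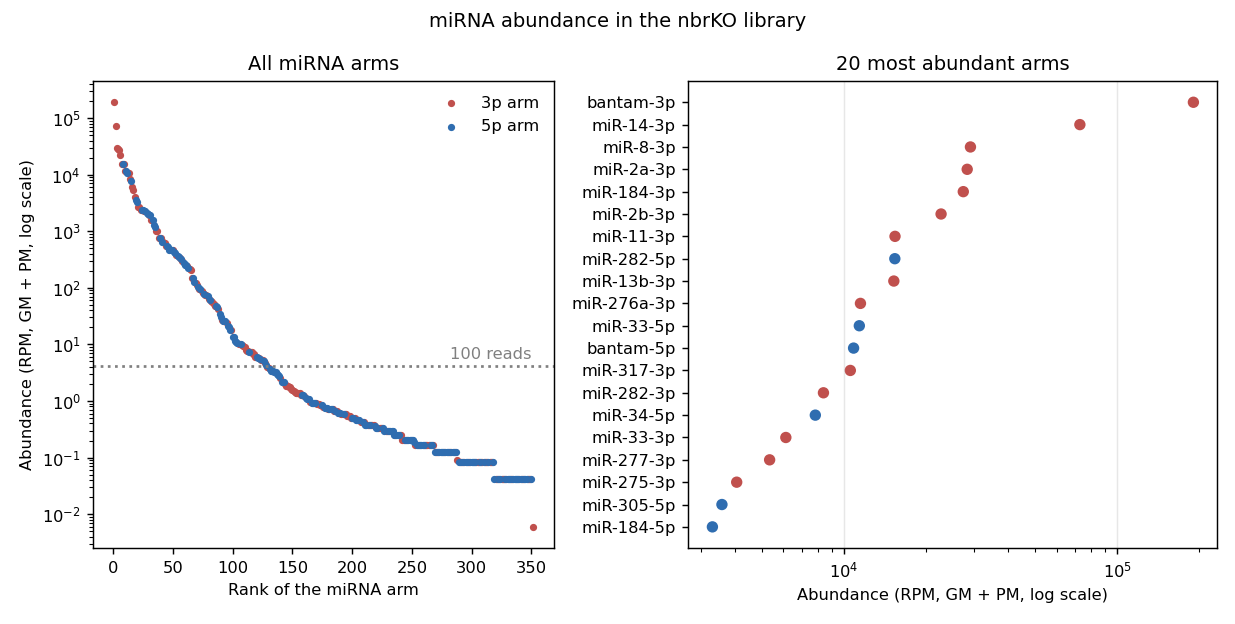
Abundance of miRNA arms in the nbrKO library in RPM (GM plus PM) on a log axis, for all 351 arms by rank (left) and for the 20 most abundant (right). Red points are 3p arms and blue points 5p arms, and the dotted line marks 100 reads. bantam-3p stands at 190245 RPM, and 223 arms lie below the dotted line.

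By position, most reads came from hairpins outside protein-coding genes. The names of 201 of 203 hairpins matched the BDGP6 annotation. Of 89 hairpins with at least 100 reads, 40 lay in an intron of a protein-coding gene on the same strand and held 19.9% of the reads, while 33 lay outside such genes and held 77.0%. A further 9 touched an exon and 7 lay antisense to a gene. bantam (3L, 642208 to 642288, plus strand) and mir-282 (3L, 3251022 to 3251118, plus strand) lay outside coding genes. So did mir-34 (3R, 10100936 to 10101034, plus strand). mir-33 (3L, 19797961 to 19798059, plus strand) lay in an intron of SREBP. Intronic hairpins included the cluster of mir-2a-2, mir-2a-1 and mir-2b-2 in spi, a gene for an EGF receptor ligand.

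Hairpins within 10 kb of each other on the same strand made up 44 of the 89 and held 21.6% of the reads. Their members were not equally abundant. The neighbours mir-275 and mir-305 had 100128 and 93730 reads, and in the cluster of mir-317, mir-277 and mir-34 they had 263398, 139556 and 212710. mir-11 and mir-998 had 372467 and 75237. The widest range among clusters with every member above 100 reads was that of mir-13b-1, mir-13a and mir-2c, where mir-13b-1 had 278 times the reads of mir-13a. The reads of mir-13b-1 are shared with the second locus, mir-13b-2, on chromosome X, so its own output was not measured.

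Over all miRNA reads, 2.72% were tailed (95% exact interval 2.71 to 2.73). The median arm had a tailed share of 2.97%, with quartiles at 1.55% and 6.22%, and 16 of the 128 arms lay below 1%, 40 above 5% and 16 above 10%. Across the 128 arms of this 1 library, tailed share and reads had a Spearman rho of 0.01. bantam-3p, with 34.8% of the reads, had a share of 0.599% (0.592 to 0.606). Without this arm, 3.85% of reads were tailed.

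By number of tailed reads the arms stood in another order than by abundance. miR-14-3p gave 17.0% of all tailed reads at a share of 3.46%, and miR-8-3p gave 13.3% at 6.82%. miR-184-3p gave 9.14% at 4.97%. miR-317-3p, rank 13 by abundance, gave the fourth most, 8.03%, at a share of 11.3%. bantam-3p gave 7.67%, and miR-34-5p, linked to ageing and neuronal maintenance, gave 5.06% at a share of 9.58% (9.45 to 9.72). These 6 arms supplied 60.3% of tailed reads.

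The 10 highest shares were spread over arms of 135 to 65317 reads. miR-2497-3p had 159 tailed of 181 reads, or 87.8% (82.2 to 92.2), although its partner miR-2497-5p had none in 105, which allows up to 3.45%. miR-1008-3p, a mirtron arm, had 3501 tailed of 5149 reads, or 68.0% (66.7 to 69.3). miR-2500-5p had 41.5% (33.1 to 50.3) on 135 reads and miR-314-3p 33.7% on 163 reads. The mirtron arms miR-1007-3p, miR-1012-3p and miR-1006-3p had 20.9%, 17.4% and 12.7%. miR-2c-3p had 14.2%, but its 810.9 tailed reads include parts of reads divided with miR-2 relatives, while its 4913 GM reads are whole. miR-966-5p had 13.7% and miR-998-3p, the neighbour of miR-11, had 12.1% on 65317 reads. Of the 16 arms above 10%, 13 were 3p arms, beside 69 of all 128. Among the 16, 14 began with U, beside 60 of all 128, and 6 came from hairpins that span an annotated intron, beside 15 of all 128.

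Few tails were seen on a mixed set of arms. miR-1009-3p, a mirtron arm, had no tailed read in 218, which allows up to 1.68%, and miR-3-3p none in 128, up to 2.84%. miR-2279-3p had 1 in 191. Of arms with over 10000 reads, miR-79-3p had the lowest share at 0.526% (0.400 to 0.677). miR-276a-3p had 0.755% and bantam-5p 0.758%.

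**Figure D2:**
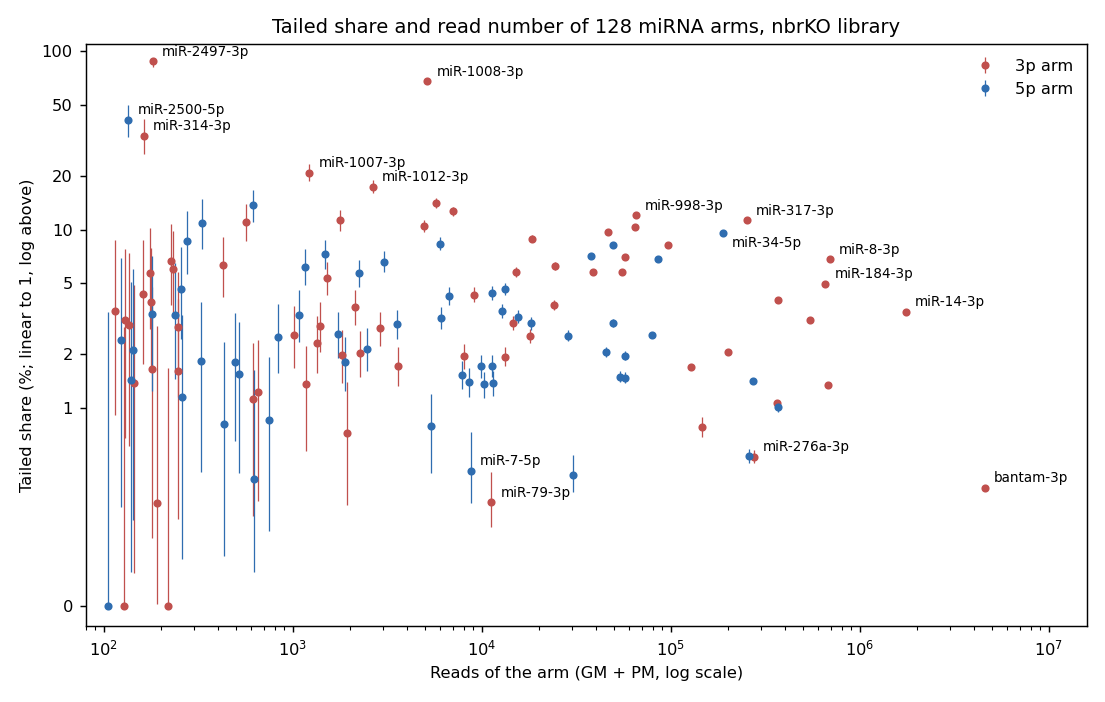
Tailed share in percent (linear up to 1, log above) against reads (log axis) in the nbrKO library (128 arms of 100 or more reads). Each point is an arm (3p red, 5p blue), and bars are exact 95% intervals for counting error. miR-2497-3p and miR-1008-3p stand at 87.8% and 68.0%, and bantam-3p, farthest right, at 0.599%.

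In mirtrons the 3p arm lies at the splice acceptor end of the intron. The 9 mirtron 3p arms with at least 100 reads had a median tailed share of 11.3% and the 4 mirtron 5p arms one of 2.11%. Both arms passed 100 reads in 4 mirtrons. In mir-1006, mir-1008 and mir-1012 the 3p arm had the higher share, with intervals apart. In mir-1003 the arms had 8.92% on the 3p and 8.70% on the 5p arm, with overlapping intervals. In mir-1016, named after its values were seen, the 3p arm had 11.3%, against 74.0% on a 5p arm of 77 reads. The 13 listed mirtrons found in the library all span an annotated intron within 3 nt, as do 15 other hairpins. The 10 arms from the 3p side of such hairpins with at least 100 reads had a median of 10.1%, and 5 were above 10%. The 59 other 3p arms had a median of 3.12%, and 8 were above 10%. The spread within the group was wide. miR-1008-3p stood at 68.0% and miR-1003-3p, the most abundant, at 8.92% on 18518 reads, whereas miR-2535b-3p had 2.32% and miR-1009-3p none. The intron-spanning 3p arms were rarer, with a median of 1557 reads against 5724 for other 3p arms. On the 5p side, the median was 2.42% over 5 arms, of which miR-2500-5p had 41.5%, and 2.53% over 54 others.

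Among lists chosen with earlier results of these data known, 8 of 10 reported Nbr substrates passed 100 reads. Their median share was 6.29%, beside 2.97% for all arms. Each of the 8 had more reads than its partner, and such arms had a median of 3.68%. miR-317-3p had 11.3%, miR-31a-5p 10.9% on 329 reads, miR-34-5p 9.58%, miR-305-5p 6.88%, miR-263a-5p 5.70% and miR-11-3p 4.02%. miR-7-5p, which acts in sensory organ development, had 0.684% and miR-3-3p none. Members thus ranged from no tailed read to 11.3%, while the highest share among all arms was 87.8%. miR-10-5p and miR-100-5p had 12 and 8 reads and were not rated. The list of the K-box family, which targets Notch pathway and cell death genes, had a median of 2.23% over 8 arms. Shares ran from 1.07% for miR-13b-3p to 14.2% for miR-2c-3p, whose tailed reads are partly divided with relatives. The next highest was miR-11-3p at 4.02%. The list leaves out miR-5-3p, which has the same bases 2 to 7. With miR-5-3p, the median over 9 arms was 1.67%. Of neighbouring hairpins, miR-277-3p had 1.70%, far below miR-34-5p and miR-317-3p. In the cluster of mir-92a and mir-92b, miR-92a-3p had 4.35% (1.77 to 8.75) and miR-92b-3p 6.32% (4.21 to 9.07), with overlapping intervals.

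Both arms of a hairpin could be compared in 51 hairpins with at least 100 reads on each. The intervals of the arms were apart in 39 of them (76.5%). The tailed share was higher on the 3p arm in 26 (51%) and on the 5p arm in 13 (25.5%), and in 12 the intervals overlapped. Set by abundance instead, the major arm, the one with more reads, was higher in 29 (56.9%) and the minor arm in 10 (19.6%). Where the 3p arm was the major one, it was the more tailed in 22 of 34 hairpins and the less tailed in 6. Where the 5p arm was the major one, it was the more tailed in 7 of 17 and the less tailed in 4. Intervals are wider on the arm with fewer reads. Some of the 51 hairpins have reads that are divided between loci. The divided reads of miR-281-3p enter for both mir-281 hairpins, and count on opposite sides when arms are set by abundance. Without hairpins of shared reads, the major arm was higher in 26 of 42 hairpins and the minor arm in 6.

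Examples, chosen after their values were seen, run in both directions. mir-317 had 11.3% on the 3p and 1.36% on the 5p arm, and mir-998 had 12.1% and 1.71%. mir-980 had 10.4% and 2.52%, and mir-8 6.82% and 3.01%. In hairpins led by the 5p arm, the 3p value was the lower one in mir-305 (1.95% and 6.88%), mir-283 (2.89% and 7.14%), mir-306 (4.32% and 8.16%) and mir-34 (6.26% and 9.58%). In these 8 hairpins the arm with more reads was the more tailed. mir-79, at 0.526% on its major 3p arm and 3.33% on its 5p arm, and bantam, at 0.599% and 0.758%, went the other way, as did mir-12, with 5.37% on its minor 3p arm and 1.40% on its major 5p arm. Over arms with at least 100 reads, 14 of 75 major arms and none of 50 minor arms had a share above 10%. The medians were 3.68% and 2.25%. Neither class includes miR-2c-3p (14.2%), whose partner was not listed, or 2 arms that are major at 1 locus and minor at another. These are miR-281-3p (10.5%), the minor arm of mir-281-2, and the joined 5p arm of mir-276a and mir-276b (0.663%).

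**Figure D3:**
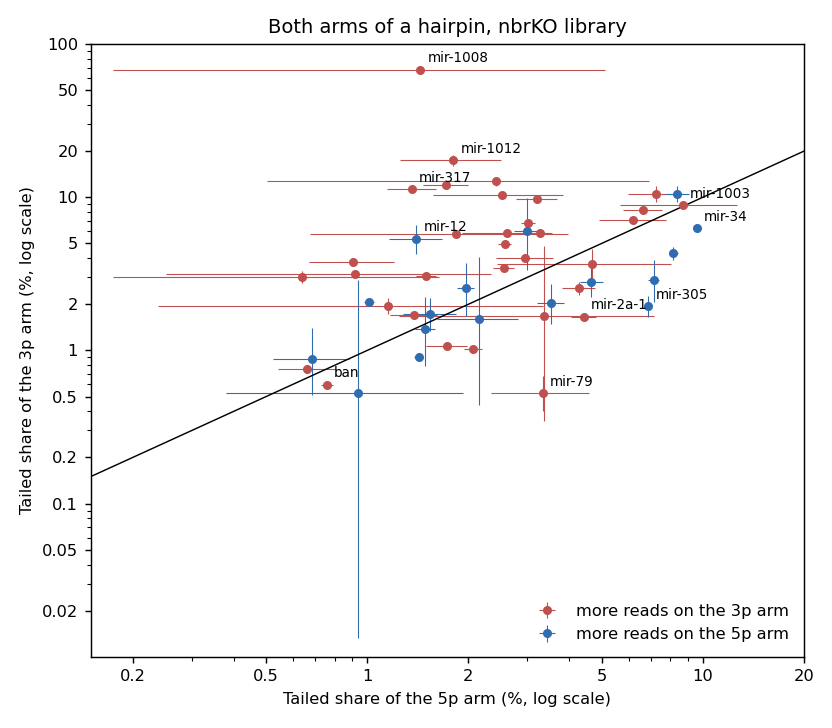
Tailed share of the 3p arm against that of the 5p arm of the same hairpin, in percent on log axes, in the nbrKO library. Points are 50 of 51 hairpins (mir-2497, with no tailed 5p read, is left out), red where the 3p arm had more reads and blue where the 5p arm had, bars are exact 95% intervals, and the line marks equal shares. mir-1008 lies far above the line at 68.0% on its 3p arm, and mir-305 and mir-79 lie below it.

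Start positions were uniform for most arms. The deposited fraction of an arm's reads that begin at the listed position (isoFrac) had a median of 0.967 over the 128 arms and was above 0.95 in 91. It was below 0.9 in 22 arms and below 0.8 in 12. No arm with at least 100 reads had a second start listed in this library. The 10 names with 2 listed starts had at most 9 reads on each, in ties. In an arm with a low fraction, the rest of the reads therefore begins at positions that the table does not list for nbrKO, and their seeds are not shown. The read numbers, ranks and arm shares given here leave those reads out.

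The 4 lowest fractions, named after their values were seen like those that follow, were on minor arms. miR-2a-2-5p had 0.520 on 45622 listed reads, miR-279-5p 0.546 and miR-252-3p and miR-996-5p 0.604 each. Among guides, miR-2a-3p, the fourth most abundant arm, had only 0.615, the mean of 0.657 at the mir-2a-1 locus and 0.570 at mir-2a-2, weighted by reads. Both loci share reads, and the miR-2b-3p and miR-13b-3p arms with the same first 7 letters had 0.975 and 0.976. miR-994-5p had 0.646, miR-79-3p 0.708 and the mirtron arm miR-1016-3p 0.730. By contrast, 16 of the 17 most abundant arms had over 0.95, among them bantam-3p with 0.986 and miR-14-3p with 0.980. In the 51 hairpins with both arms measured, the major arm had the higher fraction in 36 and the minor arm in 15. Across the arms, fraction and reads had a Spearman rho of 0.37 (128 arms of 1 library).

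Arm choice was sharp in most hairpins. Of 89 hairpins with at least 100 reads, 58 had more reads on the 3p arm and 31 on the 5p arm, and 3p arms held 85.9% of all reads (80.8% without bantam). In the 88 with both arms listed, the major arm held a median of 94.1% of the hairpin's reads (quartiles 82.0% and 98.1%). It held over 90% in 53 hairpins and over 99% in 10. Hairpins led by the 3p arm were more one-sided, with a median of 96.9%, than those led by the 5p arm, with 85.0%. The authors' mark of an arm has no definition in the headers and was read as that of the leading arm. How it was set is not given, and it may rest on these same reads. The marked arm was the one with more reads in 146 of 151 hairpins with unequal arms. In the other 5 (mir-193, mir-954, mir-313, mir-2491 and mir-9a) the hairpin had at most 34 reads.

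The most even hairpins were mostly rare ones. mir-5 had 180 reads on the 3p and 179 on the 5p arm, mir-284 82 and 67, and mir-984 52 and 81. The loci of mir-983 had 72 and 119.5 reads each, which are shared between them. The mirtron mir-1012 had 2659 and 1886, or 58.5% on the 3p arm (57.1 to 59.9). A pair of abundant hairpins, chosen after their values were seen, came close to this balance. mir-282 had 201774 reads on the 3p and 368331 on the 5p arm, and mir-33 had 146939 and 273046, so 35.4% and 35.0% of their reads lay on the 3p arm. In absolute terms, 15 hairpins had over 10000 reads on each arm, among them mir-184 with 656056 and 79108, mir-34 with 24300 and 188410 and mir-988 with 38561 and 15488.

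Of the 4 most one-sided hairpins, 3 have reads on 1 arm that are shared with another locus, and mir-13a does not. mir-13b-1 had 182619 reads on the 3p arm and 3 on the 5p arm, mir-2b-1 had 293826 and 434, and mir-13a 654 and 2. The related loci mir-13b-2 and mir-2b-2, with 3p arms of 182622 and 250188 reads, had 11305 and 53592 on their 5p arms. Because the 3p reads of the 2 loci were divided between them and the 5p reads were not, only the 5p reads were assigned to 1 locus. mir-276b had 42 reads on the 3p arm, against 15154 on a 5p arm whose values are identical to those of mir-276a. The 3p arms have values of their own, 275665 reads for mir-276a and 42 for mir-276b. Their full sequences were not compared.

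**Figure D4:**
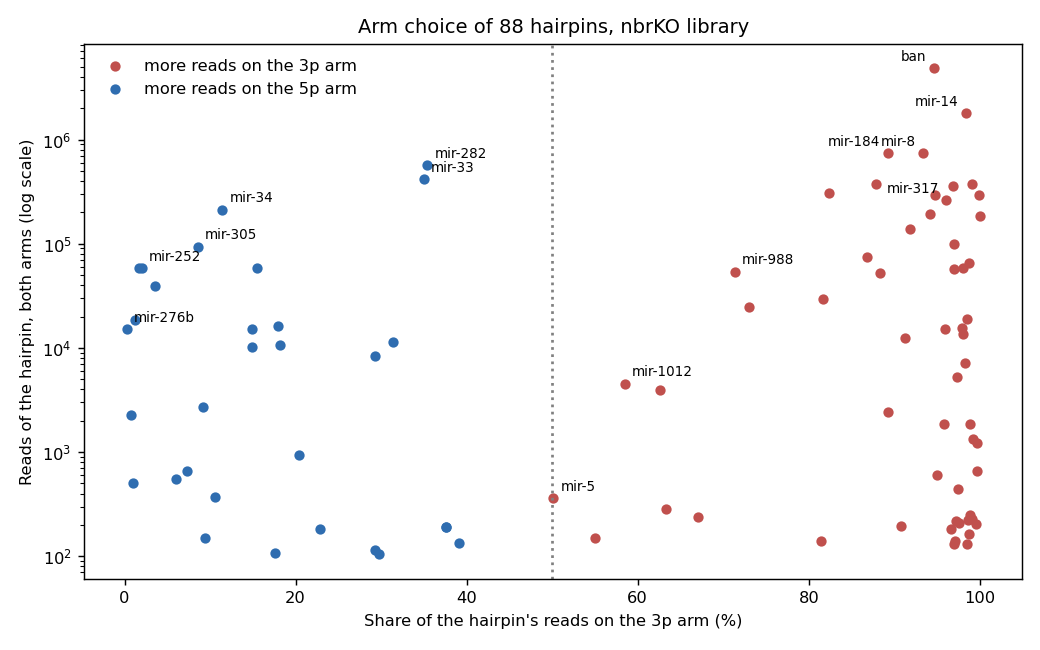
Reads of a hairpin on both arms (vertical log axis) against the share of them on the 3p arm in percent (horizontal axis), in the nbrKO library (88 hairpins of 100 or more reads, both arms listed). Red points have more reads on the 3p arm and blue points on the 5p arm. Of these, 53 have over 90% of reads on 1 arm, whereas mir-282 and mir-33 lie at 35.4% and 35.0% and mir-5 at 50.1%.

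The first base differed between major and minor arms. Over the 128 arms, 60 began with U, 26 with A, 26 with C and 16 with G. By reads, U held 85.6%, C 8.57%, A 3.16% and G 2.71%, and without bantam-3p U held 77.8%. Of 75 major arms 53 began with U (70.7%), against 5 of 50 minor arms (10.0%). On the 3p side it was 39 of 50 major arms, against 3 of 17 minor arms. On the 5p side it was 14 of 25 major arms, against 2 of 33 minor arms. G began 1 of 75 major arms and 15 of 50 minor arms, and C began 7 and 19. At position 2, U was found in 18.8% of arms, far from its share at the first position.

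Abundant guides without a first U were few. miR-11-3p begins with C and ranks seventh, and miR-33-5p begins with G and is the only major arm to do so. The A class is led by miR-282-3p, the minor arm of its hairpin with 201774 reads, and by miR-305-5p with 85728. bantam-5p, which begins with C, and miR-14-5p, which begins with G, are minor arms. By first base, the median tailed share was 3.49% for U, 3.22% for A, 2.34% for C and 2.48% for G. Most U arms are major arms, so first base and arm class were not separated in these medians.

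**Figure D5:**
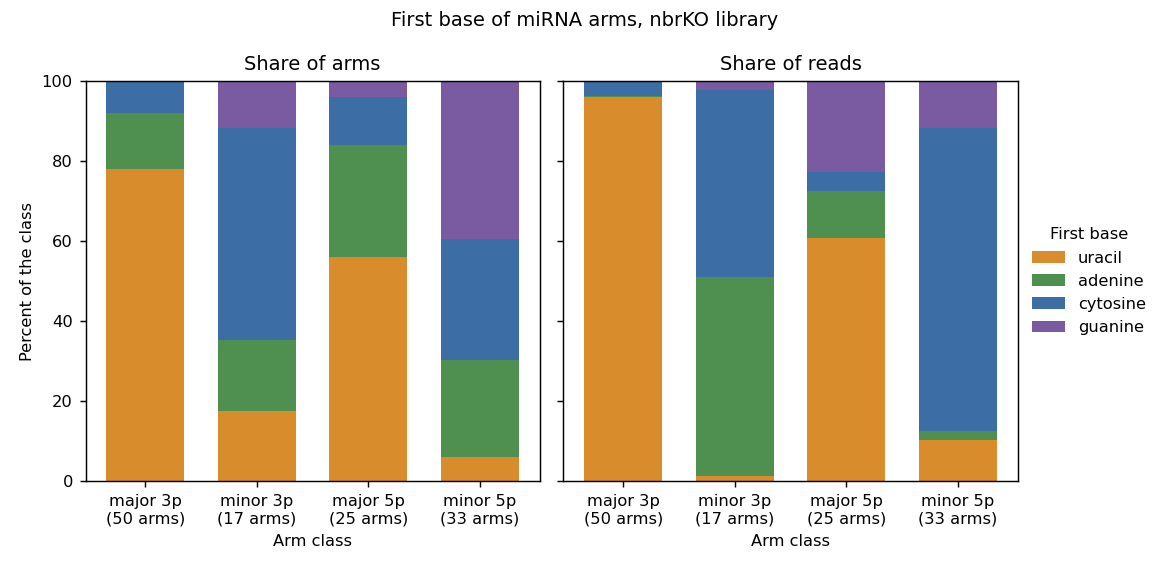
First base of the arms in 4 classes in the nbrKO library, as percent of arms (left) and percent of reads (right). Major and minor are the arms of a hairpin with more and fewer reads. U begins 39 of 50 major 3p arms and 2 of 33 minor 5p arms.

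Shared starts tie arms into families. The 128 arms carried 115 different strings of 7 letters, and 21 arms shared theirs in 8 groups. The largest group, tATCACA, joined miR-2a-3p, miR-2b-3p, miR-13b-3p, miR-2c-3p, miR-13a-3p, miR-6-3p and miR-5-3p and held 12.1% of all reads, with 1594516. Counting bases 2 to 7 alone, miR-11-3p and miR-308-3p joined them, for 15.1% of the reads, second only to bantam-3p. Members of this family differed in first base (miR-11-3p has C) and in tailed share. The next groups were pairs.
miR-275-3p: tCAGGTA
miR-998-3p: tAGCACC
miR-279-3p: tGACTAG
The first string is shared with miR-306-5p, a 5p arm of another hairpin. Both had nearly the same tailed share, 8.21% for miR-275-3p and 8.16% for miR-306-5p. The second is shared with miR-995-3p, and these arms had 12.1% and 7.07%. The third is shared with miR-996-3p, and the values were 5.80% for miR-279-3p and 2.54% for miR-996-3p, with intervals that did not overlap. A common seed thus went with like shares in 1 of these pairs and with different shares in the others.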

How the data were processed

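Small RNAs of 18 to 30 nt were sequenced, with 4 random bases at the ligated adapter ends, per the labels' protocols. Tools named, per the submitters' processing notes, are cutadapt 1.2.1 and HTSeq 0.9.1, with no roles. For aligner and build, no statement was found: not given in the sources used here. The authors deposited RPM values (GM and PM columns) and a fraction (isoFrac) for each 5′ isoform, per the file headers.

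RPM was divided by the worth of 1 read (0.0417 RPM), inferred from the commonest low value and refined on near-whole multiples of it. Whole reads within 0.01 resulted for 95.9% of GM and 95.2% of PM values above 0. The others are fractions of reads shared between loci, so no count model was fitted. Loci taken as the same mature arm, by name and first 7 letters, were summed (9 arms in all). Among them are miR-276a-5p and miR-276b-5p, joined because their values are identical and include a part of a read. Shares use arms with at least 100 reads and exact Clopper-Pearson intervals at 95%, on rounded reads. Interval coverage was tested on simulated whole reads drawn independently of one another, a setting that leaves out reads shared between loci. Hairpin positions come from the BDGP6 annotation, by name. The older chromosome names in the table mark another build, and its coordinates were not used.

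The arms named are the 12 most abundant, the 10 highest and 6 lowest tailed shares, the 6 most even and 4 most one-sided hairpins, the 2 most abundant per first base, hairpins whose mark disagrees, and list members. A rule for arms with several listed starts found none. Members and lists were chosen with earlier results of these data known. The comparisons within hairpins, by position and by arm class, and the low start fractions, were added after seeing the data. Python 3.11.15, pandas 2.3.3 and scipy 1.17.1 were used.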

Additional observations from a re-analysis of the deposited data

How the results depend on the processing

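Of 38 alternatives, 29 stayed within the interval of the value, or within 1.5 times a count. For medians, this interval came from the spread over arms or hairpins, which are not replicates, and not from counting error. This tally is a loose guide. Using the leading start alone changed nothing, since no arm with at least 100 reads has a second listed start. A fall from 26 to 18 hairpins more tailed on the 3p arm still lies within 1.5 times. The median tailed share was 3.12% with at least 30 reads and 3.01% with at least 1000. The share of the 10 first arms was 78.7% with GM reads only, 73.6% with loci not joined and 82.4% without arms of split reads. The pooled tailed share was 3.85% without bantam-3p, 2.83% without arms of split reads and 2.83% without the miR-2 and miR-13 families. With at least 1000 reads, 38 hairpins were led by the 3p arm and 18 by the 5p arm, since fewer hairpins remain. The start fraction recomputed from listed rows is 1, since no second start is listed. Chosen after seeing the data, removing bantam-3p left 77.8% of reads with a first U, and removing hairpins with shared reads left 22 more tailed on the 3p and 10 on the 5p arm of 42. With at least 1000 reads on each arm, these were 18 and 13 of 37. No paired analysis was possible because each group holds 1 library. Depth limits rare arms: none in 105 reads allows up to 3.45%.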

Other observations

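Below 100 reads, 1 arm is named after its value was seen. miR-1016-5p, the minor arm of a mirtron in Opa1, had a tailed share of 74.0% (62.8 to 83.4) on 77 reads, beside 11.3% on 1776 reads of miR-1016-3p. The mir-959 to mir-964 cluster, known from testis, and the mir-310 to mir-313 group with its neighbours had 86 and 169 reads over all their hairpins. In the embryonic cluster of mir-309, 6 of 8 hairpins had at least 100 reads and mir-309 itself had 9. Among the 6 are 3 mir-6 hairpins, which share the 619 reads of miR-6-3p.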
